A study of Mus musculus with 8 samples.

Results

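Syndecans and glypicans are the main heparan sulfate proteoglycans of the cell surface, and 9 of their genes were followed here among the 54532 genes listed in each library of a mouse mammary tumor line. They were the 4 syndecans Sdc1, Sdc2, Sdc3 and Sdc4 and the 5 glypicans Gpc1, Gpc2, Gpc3, Gpc4 and Gpc6. Sdc3 was chosen by its measured rise in cells with an shRNA against MCT-1, and the other 8 were taken because they belong to the same families. The difference of Sdc3 between shMCT-1 and scramble cells is therefore a description and carries no test. The remaining glypican, Gpc5, was added for completeness.

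The libraries came from 4T1 cells, a triple-negative line grown from a spontaneous mammary tumor of a BALB/c mouse. All cells had been stably transfected and were kept under puromycin. They carried either an shRNA against the MCT-1 gene (shMCT-1) or a scramble shRNA (scramble). Each background had received control IgG or anti-IL-6R, an antibody (clone 15A7) that blocks the binding of IL-6 to its receptor, at 100 ng/ml, and the labels name a treatment of 48 h. This made 4 groups, scramble + IgG and shMCT-1 + IgG as well as scramble + anti-IL-6R and shMCT-1 + anti-IL-6R. Each group had 2 libraries of poly(A) RNA, described by the submitters as independent biological replicates. A single hairpin sequence was used against MCT-1 in 4T1 cells, and whether the lines were pools or clones was not given in the sources used here. Differences between shMCT-1 and scramble are thus differences between these stably transfected lines, and effects of the line and of the knockdown cannot be told apart.

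Proteoglycans of this kind consist of a core protein and long heparan sulfate chains. Syndecans cross the membrane and reach the cytoskeleton and scaffold proteins through a short cytoplasmic tail, whereas glypicans are held in the outer leaflet by a glycosylphosphatidylinositol anchor. Their sulfated chains bind growth factors, chemokines and matrix proteins and act as co-receptors, and their ectodomains can be cut off by metalloproteases. Syndecan-1 is the typical syndecan of epithelia, syndecan-2 is known from mesenchymal and endothelial cells, syndecan-3 from neural tissue and developing cartilage and muscle, and syndecan-4 from the focal adhesions of most adherent cells.

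Library totals ranged from 19839299 to 33063570 counts, and the shMCT-1 libraries (19839299 to 23448587) were all smaller than the scramble libraries (24100084 to 33063570). Levels are given in CPM, counts scaled to the size of each library as adjusted by TMM (factors 0.9763 to 1.0265). By the library totals before that adjustment, 1 CPM rested on 19.8 to 33.1 counts. Mcts1, the gene silenced by the hairpin, stood at 15.0 and 11.8 CPM in scramble + IgG, 12.6 and 13.2 in scramble + anti-IL-6R, 6.41 and 6.28 in shMCT-1 + IgG and 6.87 and 4.99 in shMCT-1 + anti-IL-6R, which matched the labels in all 8 libraries. The epithelial markers Krt8, Krt18 and Cdh1 were at 251 CPM or more in every library, whereas Epcam averaged 4.29 CPM in scramble and 52.1 CPM in shMCT-1. Among the 4 macrophage and leukocyte markers, Adgre1 was at 0 throughout and Ptprc did not exceed 0.139 CPM. Their summed level was 3.08 to 3.89 CPM in scramble and 6.14 to 8.0 CPM in shMCT-1, mostly Cd68. The 3 endothelial markers summed to 0.0944 to 0.290 CPM and to 0.516 to 1.89 CPM, respectively, the 4 fibroblast markers to 15.0 to 17 and 13 to 16.5 CPM, and the 3 adipocyte markers to at most 0.0867 CPM. In these bulk libraries, fewer cells of a type and less RNA per cell cannot be told apart. To even out depth, the fits were repeated with every library thinned to the smallest total. Within IgG, the log2 fold changes of shMCT-1 over scramble were then 0.51 for Sdc1, 0.55 for Sdc2 and -0.31 for Sdc4. Without thinning they were 0.51, 0.52 and -0.32. The part of the higher Epcam, Cd68 and endothelial marker levels in the differences between shMCT-1 and scramble was not tested.

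Of the 9 members, 6 had counts and passed the filter for testing. These were all 4 syndecans, Gpc1 and Gpc4, and only Gpc4 was at or under 1 CPM in any library. Gpc2, Gpc3 and Gpc6 were listed at 0 in all 8 libraries, as was Gpc5. A count of 0 allows up to 3 counts, and this covers counting error only. By library totals before the TMM adjustment, that is 0.0907 CPM in the largest library and 0.1512 CPM in the smallest. A 0 was common in these files, since 5385 of 21995 protein-coding genes (24.5%) were at 0 in every library. Gpc2 also overlaps the protein-coding model Gm43720, which held at most 1.34 counts, so that the assignment of reads between them is uncertain.

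The proximal promoters of Sdc3, Sdc1 and Sdc4 are shown because these are the syndecans with a RefSeq window, and they include a gene that rose and a gene that fell in shMCT-1. Each window is RefSeq sequence on GRCm38.p6, 5′ to 3′ on the strand of the gene, from 250 bases before to 50 bases after the RefSeq start. Capitals mark GC boxes (GGGCGG on either strand) and, in Sdc1, a CCAAT box read on the opposite strand. The windows are chr4:130792287-130792586 on the plus strand for Sdc3, chr12:8771146-8771445 on the plus strand for Sdc1 and chr2:164443139-164443438 on the minus strand for Sdc4.
Sdc3: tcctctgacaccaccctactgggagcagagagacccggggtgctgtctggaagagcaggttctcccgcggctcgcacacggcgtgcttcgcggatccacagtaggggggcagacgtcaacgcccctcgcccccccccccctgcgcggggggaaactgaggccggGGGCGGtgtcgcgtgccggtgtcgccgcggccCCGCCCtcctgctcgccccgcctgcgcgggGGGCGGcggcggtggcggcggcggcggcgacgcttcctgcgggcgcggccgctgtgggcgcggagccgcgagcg
Sdc1: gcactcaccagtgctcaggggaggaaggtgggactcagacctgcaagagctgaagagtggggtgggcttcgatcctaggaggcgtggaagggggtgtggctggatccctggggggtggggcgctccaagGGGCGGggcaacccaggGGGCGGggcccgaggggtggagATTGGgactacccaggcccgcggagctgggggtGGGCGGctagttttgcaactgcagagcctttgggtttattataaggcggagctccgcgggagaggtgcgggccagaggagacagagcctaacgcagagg
Sdc4: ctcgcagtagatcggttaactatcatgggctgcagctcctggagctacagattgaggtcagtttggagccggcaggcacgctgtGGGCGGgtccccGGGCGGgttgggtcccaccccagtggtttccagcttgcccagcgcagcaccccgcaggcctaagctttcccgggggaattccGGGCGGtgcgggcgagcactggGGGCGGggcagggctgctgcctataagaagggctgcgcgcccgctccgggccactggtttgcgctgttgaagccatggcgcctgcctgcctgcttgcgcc

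The Sdc3 window held 3 GC boxes, a GC content of 77.7% and 44 CpG dinucleotides. The Sdc1 window held 3 GC boxes, 66.3% GC and 14 CpG, and the Sdc4 window held 4 GC boxes, 67.7% GC and 22 CpG. All 3 windows lay above the medians of 52.7% GC and 7 CpG over 32851 promoters. A GC box was present in 35.7% of those promoters and CCAAT in 37.4%. TATAAA (13.6% of promoters), CACGTG (7.15%) and the STAT motif TTCNNNGAA (8.3%) were searched on both strands and were not among the letters of these 3 windows. RefSeq windows were matched for 6 of the 9 members, which were these 3 with Gpc2, Gpc3 and Gpc4. Sdc2, Gpc1 and Gpc6 had none.

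Sdc3, which encodes the syndecan with the largest core protein and a long extracellular domain, lies at 130792537-130826319 on the plus strand of chromosome 4 (GRCm38, ENSMUSG00000025743). It stood at 3.86 and 4.10 CPM in scramble + IgG, at 3.37 and 3.67 CPM in scramble + anti-IL-6R, at 52.5 and 46.5 CPM in shMCT-1 + IgG and at 57.9 and 58.3 CPM in shMCT-1 + anti-IL-6R. All 4 shMCT-1 libraries were thus far above all 4 scramble libraries, and the ranges did not overlap. These levels rested on 99 to 124 counts per scramble library and on 1074 to 1262 counts per shMCT-1 library. The level in shMCT-1 was 12.4 times that in scramble within IgG (log2 fold change 3.64), 16.5 times within anti-IL-6R (4.04) and 14.4 times across both treatments (3.85). Across both treatments this placed Sdc3 at rank 107 of the 12704 genes tested when ordered by log2 fold change, and these are the values it was chosen by. The antisense genes annotated across it, Gm12970 and Gm26716, were at 0 in all libraries.

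**Figure D1:**
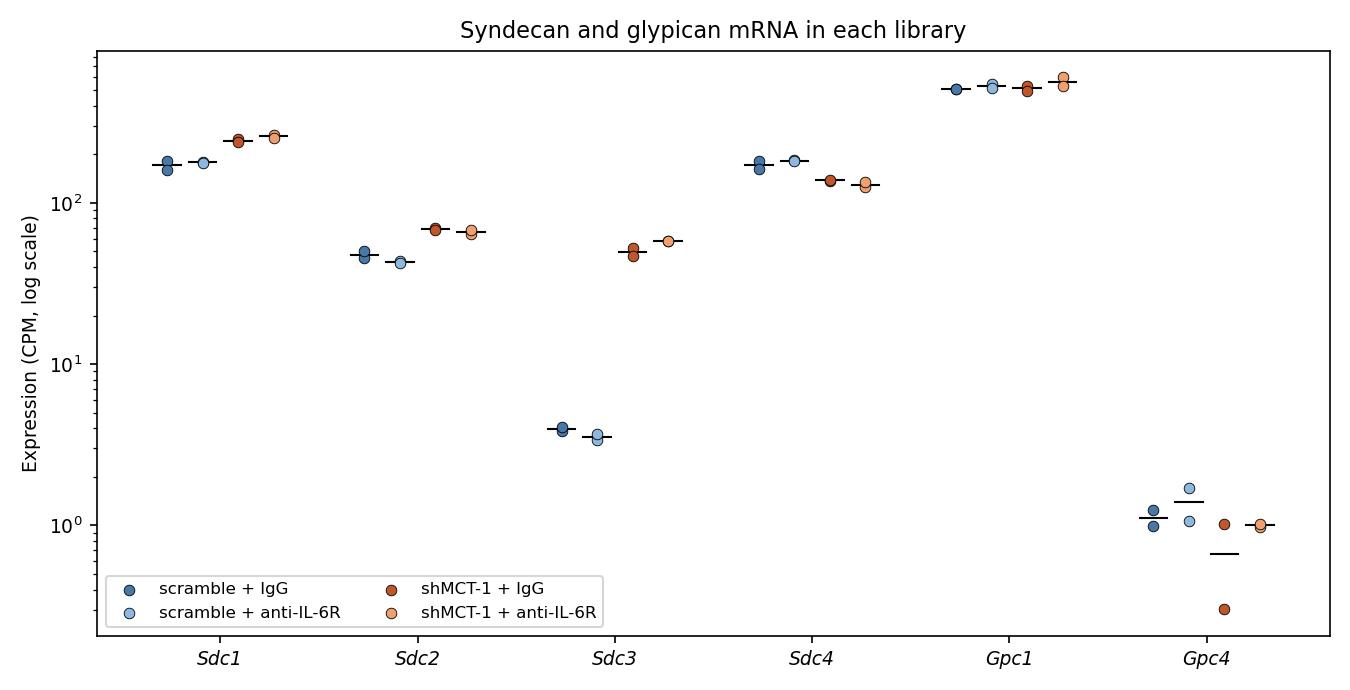
Level of each tested syndecan and glypican in CPM (log axis) in the 8 libraries, with 1 point per library and a bar at the mean of each group of 2. Sdc3 sits at 3.37 to 4.10 CPM in scramble and at 46.5 to 58.3 CPM in shMCT-1, Sdc1 and Sdc2 sit higher and Sdc4 lower in shMCT-1, and the Gpc1 points overlap between backgrounds.

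Sdc1 and Sdc2 also rose in shMCT-1, by far less than the difference seen for Sdc3. Sdc1, the epithelial syndecan, lies at 8771323-8793715 on the plus strand of chromosome 12. It stood at 182 and 159 CPM in scramble + IgG, at 180 and 176 CPM in scramble + anti-IL-6R, at 248 and 238 CPM in shMCT-1 + IgG and at 263 and 253 CPM in shMCT-1 + anti-IL-6R. Every shMCT-1 library was above every scramble library. The log2 fold change was 0.51 (SE 0.09, adjusted p = 0.0011) within IgG and 0.54 (SE 0.09, adjusted p = 0.000847) within anti-IL-6R. Across both treatments it was 0.52 (SE 0.06, adjusted p = 1.64e-05), or 1.44 times the scramble level with a 95% interval of 1.31 to 1.57.

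Sdc2, the syndecan best known from mesenchymal cells, lies at 32920723-33034935 on the plus strand of chromosome 15. Its level was 45.2 and 50.2 CPM in scramble + IgG, 43.6 and 42.4 CPM in scramble + anti-IL-6R, 69.3 and 67.7 CPM in shMCT-1 + IgG and 64.1 and 67.4 CPM in shMCT-1 + anti-IL-6R. Here too the shMCT-1 libraries were all higher, without overlap. The rise was 0.52 on the log2 scale (SE 0.09, adjusted p = 0.000852) within IgG and 0.61 (SE 0.09, adjusted p = 0.000348) within anti-IL-6R. Across both treatments Sdc2 reached 1.48 times its scramble level (95% interval 1.36 to 1.62, adjusted p = 9.45e-06).

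Sdc4 moved the other way. This syndecan of focal adhesions, which signals through protein kinase C alpha, lies at 164424247-164443887 on the minus strand of chromosome 2. It stood at 181 and 162 CPM in scramble + IgG, at 183 and 182 CPM in scramble + anti-IL-6R, at 137 and 138 CPM in shMCT-1 + IgG and at 125 and 134 CPM in shMCT-1 + anti-IL-6R, so that all shMCT-1 libraries were lower and the ranges did not overlap. Sdc4 fell by 0.32 on the log2 scale within IgG (SE 0.09, adjusted p = 0.0111) and by 0.49 within anti-IL-6R (SE 0.09, adjusted p = 0.00112). Within IgG the call was lost when shMCT-1 + IgG replicate 1 (adjusted p = 0.0662) or replicate 2 (adjusted p = 0.0609) was left out, with log2 fold changes of -0.31 and -0.32. Across both treatments Sdc4 was at 0.756 times its scramble level (95% interval 0.688 to 0.831, adjusted p = 0.000165).

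Gpc1, the glypican of many epithelial tumors and by count the most abundant member, lies at 92831645-92860779 on the plus strand of chromosome 1. It stood at 506 and 509 CPM in scramble + IgG, at 546 and 512 CPM in scramble + anti-IL-6R, at 533 and 495 CPM in shMCT-1 + IgG and at 599 and 527 CPM in shMCT-1 + anti-IL-6R. The backgrounds overlapped, with 1 shMCT-1 library below and 1 above all scramble libraries. The log2 fold change was 0.02 (SE 0.09, adjusted p = 0.874) within IgG, where its sign turned under scaling by library totals alone (-0.023), and 0.09 (SE 0.09, adjusted p = 0.434) within anti-IL-6R. Across both treatments the ratio of shMCT-1 to scramble was 1.04, with a 95% interval of 0.945 to 1.14 (adjusted p = 0.45). Gpc1 was the member with the fewest whole counts (25% of its values), and it overlaps Ankmy1 and Gm29480 on the opposite strand, which held at most 23.52 and 30 counts in any library, against 11410 or more for Gpc1.

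Gpc4, a glypican of the X chromosome (52053021-52165252, minus strand), was near the lower limit. It held 28 and 30 counts in scramble + IgG, 34 and 58 in scramble + anti-IL-6R, 22 and 7 in shMCT-1 + IgG and 19 and 22 in shMCT-1 + anti-IL-6R, or 0.991 to 1.71 CPM in scramble and 0.303 to 1.02 CPM in shMCT-1. The ranges overlapped slightly, and the lowest value came from shMCT-1 + IgG replicate 2. The log2 fold change was -0.76 (SE 0.51, adjusted p = 0.229) within IgG, -0.48 (SE 0.46, adjusted p = 0.401) within anti-IL-6R and -0.61 (SE 0.33, adjusted p = 0.124) across both treatments. Without shMCT-1 + IgG replicate 1, which leaves the 7 counts of replicate 2 as the only library of that group, the value within IgG became -1.86 (adjusted p = 0.0323). The 95% interval of the ratio across both treatments, 0.396 to 1.09, included 1.

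Of the 5 tested members other than Sdc3, 2 rose, 1 fell and 2 did not pass the test in each of these 3 comparisons. Over all 12704 genes tested, 54.4% were called within IgG (28.3% higher and 26.2% lower), 54.3% within anti-IL-6R (26.9% higher and 27.3% lower) and 69% across both treatments (35% higher and 34% lower). The median log2 fold change of all tested genes was 0.011, 0.008 and 0.01. Because Sdc3 was chosen on this contrast, nothing is read from the number of members called. In exact two-sided permutation tests of 4 shMCT-1 against 4 scramble libraries, Sdc1, Sdc2 and Sdc4 each gave p = 0.0286, the smallest p that 4 against 4 allows, Gpc4 gave 0.0857 and Gpc1 gave 0.457. The share of all tested genes whose backgrounds did not overlap, or that reached this smallest p, is not given here. Nothing is therefore read from how many members did so.

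The members also differed in how closely replicates matched. Between the 2 libraries of a group the coefficient of variation of Sdc3 was below that of counting error in 3 groups, and in shMCT-1 + IgG it was 8.48%, where counting error alone gives 3.01%. For Sdc1 it was 1.83 to 9.62% and for Sdc4 0.17 to 7.94%, with counting error of at most 1.94%, and both had their widest pair in scramble + IgG. Gpc4 varied most in shMCT-1 + IgG, by 76.7%, where counting error gives 26.3%.

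Anti-IL-6R moved no member past the test in either background. The question was whether blocking the IL-6 receptor changed these genes, and it was tested for all 6. Sdc3 was chosen by its rise in shMCT-1 as read in all 4 groups. Its own values here are therefore not independent of that choice, and nothing is read from its p-values or intervals. In scramble, the log2 fold change of anti-IL-6R over IgG was 0.06 for Sdc1 (SE 0.09), -0.15 for Sdc2 (SE 0.09), -0.18 for Sdc3 (SE 0.13), 0.09 for Sdc4 (SE 0.09), 0.06 for Gpc1 (SE 0.09) and 0.33 for Gpc4 (SE 0.44). By the 95% intervals, the level under anti-IL-6R could be 0.931 to 1.21 times that under IgG for Sdc4, 0.723 to 1.09 times for Sdc3 and 0.632 to 2.49 times for Gpc4. In shMCT-1 the log2 values were 0.09 for Sdc1, -0.06 for Sdc2, -0.09 for Sdc4, 0.13 for Gpc1 and 0.61 for Gpc4. Sdc3 was at 52.5 and 46.5 CPM under IgG and at 57.9 and 58.3 CPM under anti-IL-6R, so that both anti-IL-6R libraries were higher. This came to 0.23 on the log2 scale (SE 0.09), or 1.17 times with a 95% interval of 1.02 to 1.35, with an unadjusted p of 0.0327 in edgeR's quasi-likelihood test and an adjusted p of 1.

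edgeR's quasi-likelihood test called 0 of the 6 members and 0% of all 12704 genes in either comparison. DESeq2 and edgeR's exact test also called 0 members, and their shares over all genes are not given here. The paper's own edgeR analysis reported differentially expressed genes in both comparisons, so the 0% holds only for the test used here. At an unadjusted p under 0.05 there were 0 members and 1.31% of all genes in scramble. In shMCT-1 there were 3.98% of all genes and no member other than Sdc3, from which nothing is read.

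**Figure D2:**
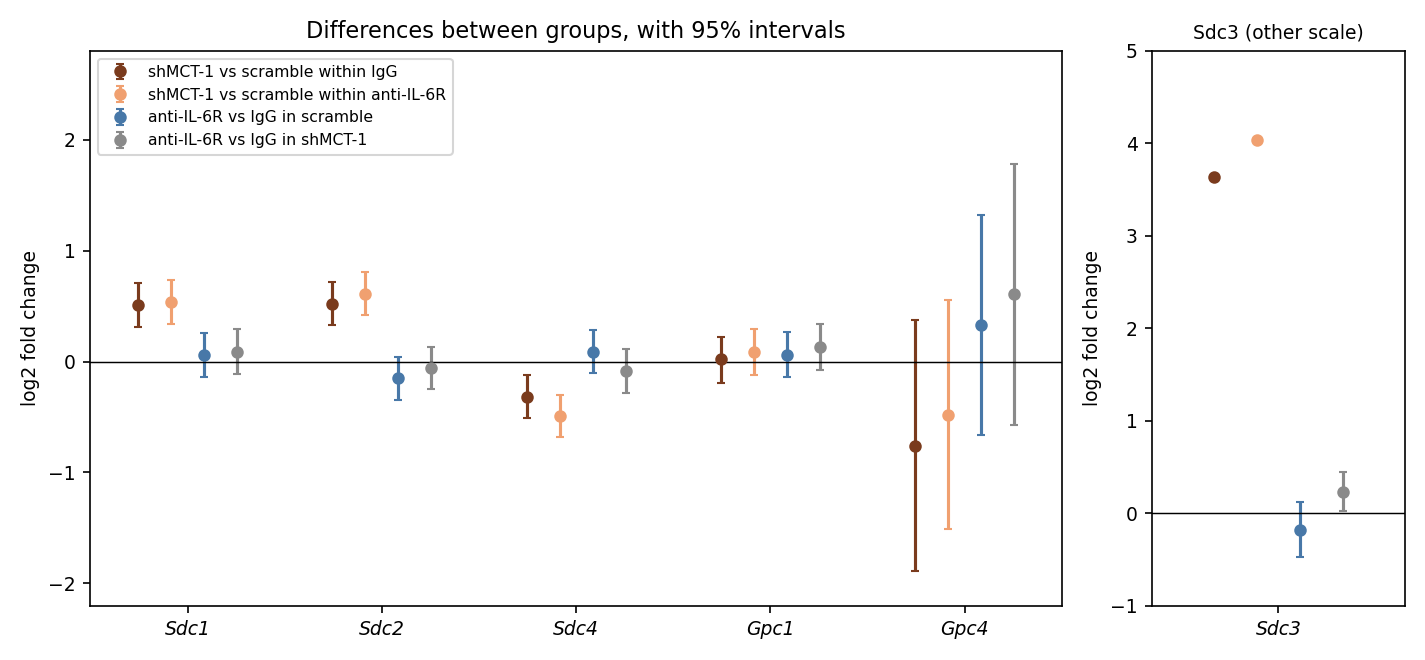
Log2 fold change of each tested member in 4 comparisons, with 95% intervals, and Sdc3 in a panel of its own scale. The shMCT-1 comparisons of Sdc3 (3.64 and 4.04) are plotted without an interval because Sdc3 was chosen by them, and the intervals of Sdc1, Sdc2 and Sdc4 leave 0 in the shMCT-1 comparisons and include it in the anti-IL-6R comparisons.

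Whether the difference between shMCT-1 and scramble was another one under anti-IL-6R than under IgG was tested as an interaction. In the case of Sdc3 this compares the very differences it was chosen by, so nothing is read from its p-value or its interval. For Sdc3, whose anti-IL-6R libraries were the lower ones in scramble (3.37 and 3.67 against 3.86 and 4.10 CPM) and the higher ones in shMCT-1, the interaction was 0.41 on the log2 scale (SE 0.16, 95% interval 0.05 to 0.77). Its unadjusted p was 0.0308 and its adjusted p was 1. The interaction was -0.17 for Sdc4 (SE 0.12), 0.09 for Sdc2 (SE 0.12), 0.02 for Sdc1 (SE 0.13), 0.07 for Gpc1 (SE 0.13) and 0.28 for Gpc4 (SE 0.69), all with an adjusted p of 1. edgeR's quasi-likelihood test called none of the members and 0% of all genes. DESeq2 called 0 members, and its share over all genes is not given here. At an unadjusted p under 0.05 in edgeR's quasi-likelihood test there were 2.48% of all genes and no member other than Sdc3.

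Levels of different genes were compared per length, as CPM per kilobase of annotated exons. In scramble the order was Gpc1 at 100 ± 3.66, Sdc4 at 69.5 ± 3.95, Sdc1 at 45.8 ± 2.79, Sdc2 at 12.9 ± 0.978, Sdc3 at 0.626 ± 0.0517 and Gpc4 at 0.473 ± 0.122 (SD, n = 4 libraries each). Each neighbour in this order was separated from the next by its range over the libraries except Sdc3 (0.562 to 0.684) and Gpc4 (0.374 to 0.647). In shMCT-1 the order was Gpc1 at 104 ± 8.41, Sdc1 at 65.8 ± 2.81, Sdc4 at 52.6 ± 2.30, Sdc2 at 19 ± 0.626, Sdc3 at 8.98 ± 0.920 and Gpc4 at 0.313 ± 0.133, and no neighbouring ranges overlapped. Per kilobase, Sdc1 and Sdc4 thus changed places and Sdc3 moved away from Gpc4.

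The exchange of Sdc1 and Sdc4 was seen within each library. Per kilobase, Sdc1 was at 0.672, 0.656, 0.661 and 0.645 times Sdc4 in the scramble libraries and at 1.21, 1.15, 1.4 and 1.26 times Sdc4 in the shMCT-1 libraries. With the length of the longest coding transcript in place of all exons, an alternative chosen after seeing the data, these ratios were 0.751 to 0.782 and 1.34 to 1.64, and the order was kept. By counts not corrected for length, Sdc1 was at 0.965 to 1.0 times Sdc4 in scramble and at 1.72 to 2.1 times in shMCT-1. In scramble the genes were thus nearly level before the length correction. The ratio of Sdc3 to Sdc2 counts, not corrected for length, was 0.0773 to 0.0865 in scramble and 0.687 to 0.903 in shMCT-1.

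The summed level of the 4 syndecans was 129 ± 5.75 CPM per kilobase in scramble and 146 ± 1.94 in shMCT-1 (SD, n = 4), with ranges of 120 to 132 and 144 to 148. Sdc4 made up 54.0 ± 0.858% of this sum in scramble and 35.9 ± 1.74% in shMCT-1. The share of Sdc1 was 35.5 ± 0.621% and 44.9 ± 1.67%, that of Sdc2 10.0 ± 1.23% and 13 ± 0.439%, and that of Sdc3 0.488 ± 0.0600% and 6.13 ± 0.573%. Sdc3 was therefore the least abundant syndecan mRNA in every library.

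**Figure D3:**
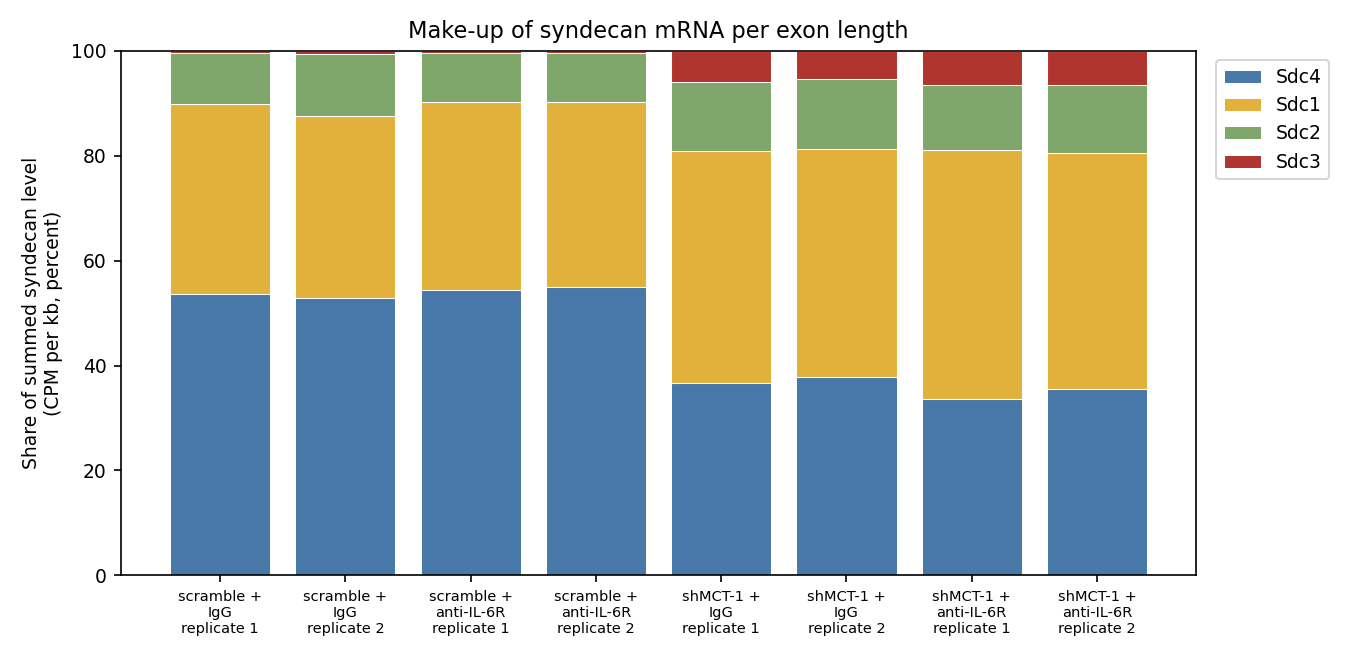
Share of each syndecan in the summed syndecan level (CPM per kilobase of exons, percent) in each of the 8 libraries. Sdc4 takes 52.9 to 54.9% of each scramble bar and 33.7 to 37.8% of each shMCT-1 bar, and Sdc3 takes 0.426 to 0.569% and 5.41 to 6.61%.

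The tested genes nearest to Sdc3 did not rise as much. Sdc3 was chosen by its rise in this contrast, so its place above them is a description only. Among the 10 nearest tested genes, 5 on each side, the median log2 fold change across both treatments was 0.14, with a range of -2.14 to 0.79. Their starts lay at -432.6 to -13.3 kb on 1 side and at 1045.8 to 1127.5 kb on the other. Gm26516, a predicted gene whose start is at -13.3 kb, fell by 2.01 on the log2 scale (1.22 to 0.298 CPM, adjusted p = 0.000768). The median of the other 794 tested genes of chromosome 4 was -0.08. Sdc3 thus stood 3.93 above its chromosome on the log2 scale.

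Among the other members, Sdc4 and Gpc1 lay nearest to the median of their chromosome, and Sdc1 and Gpc4 lay furthest from it. Sdc4 was at -0.40 where the median of 1000 other genes of chromosome 2 was -0.37. The 10 tested genes nearest to Sdc4 had a median of -0.09 and a range of -2.54 to 0.92. Sdc2 was at 0.57 and chromosome 15 at 0.17 (515 genes), whereas Sdc1 was at 0.52 and chromosome 12 at -0.35 (481 genes). Gpc1 was at 0.05 and chromosome 1 at 0.21 (745 genes), and Gpc4 was at -0.61 and the X chromosome at 0 (358 genes). The part of chromosome-wide differences between the lines in the value of Sdc4 was not tested.

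**Figure D4:**
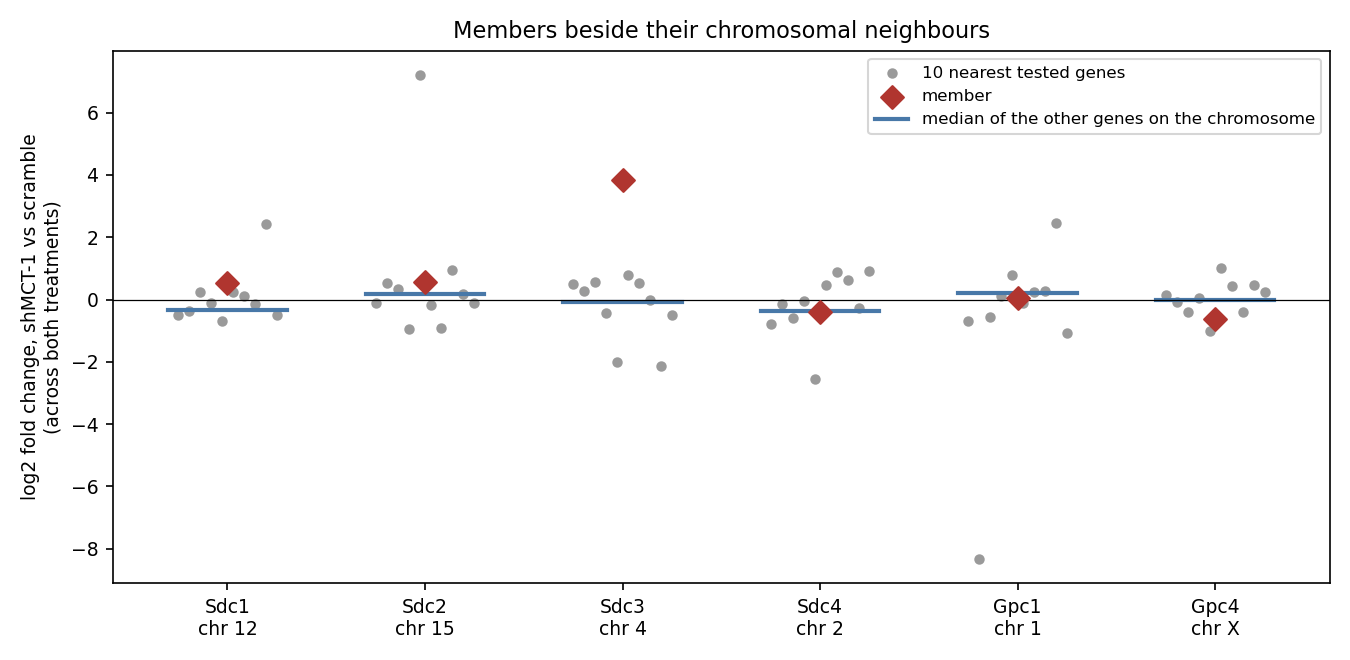
Log2 fold change of shMCT-1 over scramble across both treatments for each tested member (diamond), its 10 nearest tested genes (grey points, in chromosomal order) and the median of its chromosome (blue line). Sdc3 at 3.85 lies above all 10 neighbours, Sdc4 lies on the median of its chromosome, and the grey point at -8.33 beside Gpc1 is a gene at 0 in every shMCT-1 library, whose fitted value depends on the prior count.

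The genes most like Sdc3 over the 8 libraries were found by the Euclidean distance of log2 CPM centred on each gene's mean. The 5 nearest were Spata13 (distance 0.387), a guanine nucleotide exchange factor, Tbkbp1 (0.421), an adaptor of the kinase TBK1, the pseudogene Serpina3h (0.434), Gnb4 (0.436), a G protein beta subunit, and Enpp5 (0.437), of the nucleotide pyrophosphatase family. Tbkbp1 averaged 5.55 CPM in scramble and 73.1 CPM in shMCT-1, and Gnb4 averaged 2.03 and 33.6 CPM. The others were lower, with Spata13 at 0.994 and 13.2 CPM, Serpina3h at 0.429 and 6.39 CPM and Enpp5 at 0.373 and 4.94 CPM. In scramble, Serpina3h (0.315 to 0.538 CPM) and Enpp5 (0.346 to 0.389 CPM) were under 1 CPM in every library. They passed the filter for testing through shMCT-1 alone. These likenesses follow the contrast that Sdc3 was chosen on and describe only the pattern of levels. For the remaining members, the nearest gene was Arf1 for Sdc1 (0.0574), Lpgat1 for Sdc2 (0.0968), Mpp1 for Sdc4 (0.0983), Dtx2 for Gpc1 (0.0666) and Zfp759 for Gpc4 (0.866).

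Genes that build, edit, shed or bind these proteoglycans were described as 8 lists of 111 genes, of which 70 were tested. Across both treatments 38 rose and 21 fell in shMCT-1, or 59 of 70. Over all tested genes 69% were called, 35% higher and 34% lower. The lists were chosen with earlier results of these data known, so nothing is read from these counts or from those per list. In either anti-IL-6R comparison and in the interaction edgeR called 0 of the 70, and 0 had an unadjusted p under 0.05.

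The chains start on a linker tetrasaccharide, and of its 6 tested enzymes 5 rose and 1 fell (median log2 fold change 0.24). B3gat3, which adds the last sugar of the linker, rose from 24.8 to 41.4 CPM (0.74, SE 0.08), while B3galt6, which adds the preceding galactose, fell from 11.3 to 6.87 CPM (-0.72, SE 0.14). Of 10 tested polymerases and sulfotransferases of heparan sulfate, 5 rose, 2 fell and 3 did not pass (median 0.10). The chain polymerase subunit Ext1 (111 to 72.1 CPM) and the N-deacetylase and N-sulfotransferase Ndst1 (109 to 73.9 CPM) fell, and the 2-O-sulfotransferase Hs2st1 (69.8 to 105 CPM) rose. Of 9 genes that edit or break down heparan sulfate, 7 rose and 1 fell (median 0.55). With more than 1 CPM required in at least 7 libraries, the gene that fell was not tested, and 7 of 8 rose. Sulf2, which removes 6-O-sulfates at the cell surface, rose from 8.65 to 18.8 CPM, and the lysosomal enzyme Gusb rose from 71.6 to 149 CPM.

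Chondroitin sulfate, which syndecan-1 and syndecan-3 can also carry, had 6 of 12 tested genes higher and 3 lower (median 0.41). Csgalnact1, which starts its chains, rose by 2.11 on the log2 scale (2.69 to 11.5 CPM, SE 0.12), and Csgalnact2 fell by 0.48 (22.5 to 16.1 CPM). Among 6 other carriers of heparan sulfate 1 rose and 5 fell (median -0.39). The betaglycan gene Tgfbr3 fell from 4.03 to 0.935 CPM and the perlecan gene Hspg2 from 547 to 284 CPM, while agrin (Agrn) rose from 161 to 243 CPM. With more than 1 CPM required in at least 7 libraries, Tgfbr3 was not tested, and of 5 carriers 1 rose and 4 fell.

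**Figure D5:**
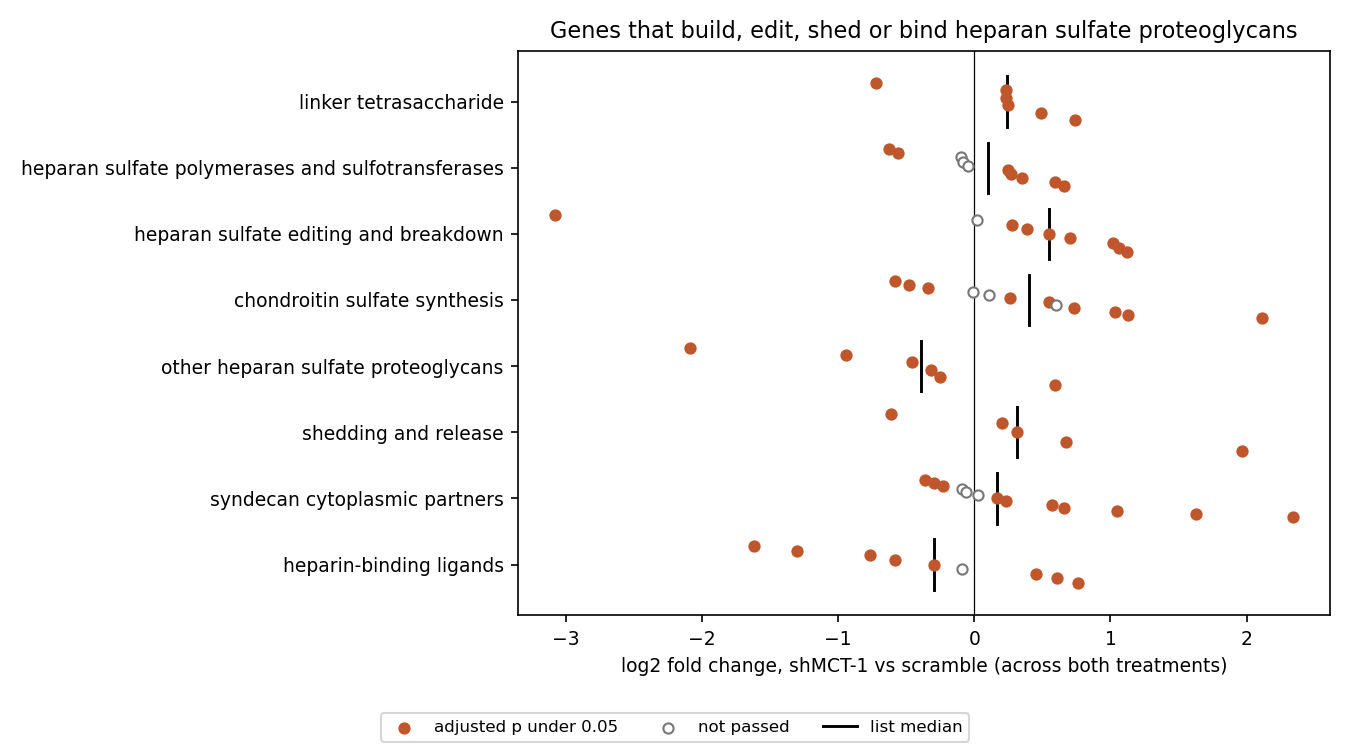
Log2 fold change of shMCT-1 over scramble across both treatments for the 70 tested genes of 8 lists, with filled points for an adjusted p under 0.05, open points for genes that did not pass and a bar at the list median. The medians run from -0.39 for other heparan sulfate proteoglycans to 0.55 for editing and breakdown.

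Of 5 tested genes that shed or release ectodomains, 4 rose and 1 fell (median 0.31), and 3 rose under scaling by library totals alone or when any of 6 of the 8 libraries was left out. Mmp9, a gelatinase able to cut syndecan ectodomains, rose from 55.3 ± 7.03 to 218 ± 26.9 CPM, whereas the sheddase Adam17 fell from 117 ± 7.19 to 76.5 ± 3.52 CPM (SD, n = 4). All 13 partners of the syndecan tail were tested, of which 7 rose, 3 fell and 3 did not pass (median 0.17). Sdcbp2, or syntenin-2, which binds the end of the tail, rose from 2.27 to 11.5 CPM (2.34, SE 0.16), the kinase Fyn rose from 8.46 to 26.3 CPM, and Prkca, the kinase partner of syndecan-4, fell from 67.0 to 57.1 CPM. Of 9 tested heparin-binding ligands, 3 rose and 5 fell (median -0.30), with Pdgfb up from 95.2 to 162 CPM and Areg down from 147 to 85.7 CPM. Genes that are low in shMCT-1 could pass the filter through scramble alone. With more than 1 CPM required in at least 7 libraries, 7 ligands were tested, of which 3 rose and 3 fell.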

How the data were processed

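RNA of 8 libraries, 2 in each of 4 groups taken from the labels, was analysed. According to the submitters' processing notes and the methods, the authors used cutadapt 1.18 for trimming, STAR 2.7.0d for alignment to mm10 and counted genes with RSEM on GENCODE annotation, and they deposited expected counts, which are not normalized (29.6% of the values above 0 were not whole). Strandedness of the counting is not given in the sources used here.

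Expected counts were rounded. The 12704 genes above 1 CPM in 2 or more libraries were fitted with 4 group means, and for the effect across both treatments with an additive model, in edgeR 4.0.16 (glmQLFit, glmQLFTest, TMM) under R 4.3.3. p-values were adjusted over all genes tested by Benjamini-Hochberg, and those under 0.05 counted as called. The test was tried on simulated data for the comparison within IgG, where most of the smallest changes put in were missed. Intervals are 95% intervals of the fit. Coordinates and exon lengths came from GENCODE M21, in which 54495 of 54532 identifiers were found.

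The members and lists were chosen with earlier results of these data known. Named genes were the members, Gpc5, Mcts1, the genes nearest in pattern, the 2 tested neighbours nearest to Sdc3 (of which 1 is not reported here) and, per list, drawn from up to 3 that rose and 3 that fell most among called genes of at least 1 CPM with the same direction in both treatments. Alternatives were DESeq2 1.42.0, RLE factors, library totals, other filters, a replicate block, thinning, edgeR's exact test, fits of the 4 libraries compared and leaving out each library.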

Additional observations from a re-analysis of the deposited data

How the results depend on the processing

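The number of members called was the same under every alternative run, except that 2 in place of 3 were called within IgG without shMCT-1 + IgG replicate 2, and Sdc1, Sdc2 and Sdc4 kept their direction in all shMCT-1 comparisons. Among the members, only Sdc4 (lost) and Gpc4 (gained) changed their call, both within IgG and each when a shMCT-1 + IgG library was left out, as given above. Scaling by library totals alone turned Gpc1 within IgG to -0.023. Leaving out each library in turn also turned the direction of values that had not passed the test: Gpc1 within IgG ranged from -0.035 to 0.07, anti-IL-6R in scramble from -0.032 to 0.16 for Sdc1 and from -0.06 to 0.62 for Gpc4, anti-IL-6R in shMCT-1 from -0.032 to 1.70 for Gpc4, and the interaction from -0.08 to 0.12 for Sdc1, from -0.0021 to 0.18 for Gpc1 and from -0.36 to 1.38 for Gpc4. Over the alternatives, the genes called across both treatments numbered 4 to 6 for shedding and release (5 as reported). They numbered 6 to 10 for heparin-binding ligands (8) and 7 to 9 for editing and breakdown (8). No list moved by more than 1.5 times in this number, but the filters also changed how many genes were tested. Of the ligands, 6 of 7 were called with the filter of 7 libraries, 8 of 9 as reported and 10 of 18 without a filter. For editing and breakdown these were 7 of 8, 8 of 9 and 9 of 12. Gpc4 could not be tested with the filter of 7 libraries. Replicate numbers are shared across groups only as numbers (correlation of deviations -0.073 to 0.118 over pairs of groups). With the replicate number as a block, 3 members were called in each shMCT-1 comparison as without it, Sdc4 within IgG stayed at -0.32 (adjusted p = 0.0133), and over all genes 7035 in place of 6912 were called within IgG. Depth limits Gpc4 most, with 7 to 58 counts per library, and Sdc3 in scramble, with 99 to 124.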
